A study of Mus musculus with 8 samples.

Results

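The 38 genes described here are the enzymes, transporters and regulators of glycolysis together with genes of the hypoxia response. They were chosen by name, though with earlier results of these data known, and all 38 were found among the 41444 genes of the deposited expression table. Of the 38, 23 are glycolytic (glucose and lactate transporters, the enzymes in pathway order, and the regulators Pfkfb3, Pfkfb4 and Pdk1). The other 15 are hypoxia-response genes, made up of 4 genes of the HIF axis and 11 targets of the HIF transcription factors that are not glycolytic enzymes. Bulk RNA-seq was made from bone marrow-derived macrophages of wild-type C57BL/6 mice, which were grown from marrow in medium with 20% serum and 100 ng/mL of M-CSF, the macrophage growth factor. The SLIT2 group held 4 libraries from cells given 6 nM of SLIT2, a secreted ligand of ROBO receptors, for 16 hours. The vehicle group held 4 libraries from cells given the vehicle control. The labels state neither the age of the mice nor whether libraries came from separate animals or cultures, so a p-value here reflects variation among these 8 libraries, which may be technical.

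Glycolysis turns glucose into pyruvate in the cytosol, and lactate dehydrogenase and a lactate exporter carry its end product out of the cell when mitochondria take up less pyruvate. Macrophages are known for raising glycolysis when they are activated. HIF-1 is a transcription factor whose alpha subunit, encoded by Hif1a, is hydroxylated in oxygen by the prolyl hydroxylases of the Egln genes and then bound by the VHL protein for degradation. When this stops, HIF-1 binds DNA at a short core sequence and raises glycolytic genes and genes of mitophagy, collagen modification and pH control. This control acts on the protein, so mRNA levels of the axis and of its targets are separate measurements.

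The core letters of the HIF response element, ACGTG or GCGTG on either strand, were looked for in promoter windows that run from 250 bases before to 50 bases after a transcription start. These windows come from RefSeq on GRCm38.p6, and 36 of the 38 genes matched, with 54 windows. Ndrg1 and Bnip3l are the other 2. At least 1 match stood in a window of 32 of the 36 genes (88.9%), against 46.7% of all 27025 genes of the same table. By window, 79.6% of the 54 held a match (ACGTG in 51.9%, GCGTG in 57.4%), against 43.8% of all 32851 windows (ACGTG in 19.6%, GCGTG in 32.4%). The windows of these genes were richer in G and C, at 62% of bases against 53.8% over all windows. CACGTG holds ACGTG on both strands and counts as 2 matches. The list was chosen to include HIF targets, for which a higher share is likely beforehand. Genes with several windows have more chances of a match, and overlapping windows of a gene, as in Ak4, count the same match again. A match is a description of letters and no site of binding was measured.

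6 windows are printed 5′ to 3′ on the strand of the gene, with each match in capitals, CACGT and CACGC being the other strand's ACGTG and GCGTG. Ldha (chr7:46845554-46845853, plus strand, 7 matches, with a further window that holds 2) and Gapdh (chr6:125165724-125166023, minus strand, 3 matches) are shown because both genes were higher with SLIT2 over all libraries. Hif1a (chr12:73907617-73907916, plus strand, 3 matches), Pfkfb3 (chr2:11502041-11502340, minus strand, 4 matches, with a further window that holds 1) and Bnip3 (chr7:138909457-138909756, minus strand, 5 matches) are shown because the response to SLIT2 differed between libraries. Tpi1 (chr6:124814109-124814408, minus strand) is shown because its response differed too and its window holds 0 matches. Other genes met the same conditions and are not printed. Among them are Pdk1 (2 matches, with a further window that holds 0), Higd1a (3), Pfkl (1) and Slc16a3 (2).
Ldha: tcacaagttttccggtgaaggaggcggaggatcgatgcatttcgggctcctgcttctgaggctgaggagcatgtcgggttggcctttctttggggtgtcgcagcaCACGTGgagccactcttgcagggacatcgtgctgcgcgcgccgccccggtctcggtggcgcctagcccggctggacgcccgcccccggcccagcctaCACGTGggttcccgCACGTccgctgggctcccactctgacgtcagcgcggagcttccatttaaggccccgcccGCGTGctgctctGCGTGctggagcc
Gapdh: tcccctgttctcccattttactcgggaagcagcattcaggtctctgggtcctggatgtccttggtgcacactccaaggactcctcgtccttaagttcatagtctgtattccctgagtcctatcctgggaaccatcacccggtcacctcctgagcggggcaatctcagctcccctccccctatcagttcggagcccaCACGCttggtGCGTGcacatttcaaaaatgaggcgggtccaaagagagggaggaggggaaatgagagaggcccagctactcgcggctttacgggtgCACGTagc
Hif1a: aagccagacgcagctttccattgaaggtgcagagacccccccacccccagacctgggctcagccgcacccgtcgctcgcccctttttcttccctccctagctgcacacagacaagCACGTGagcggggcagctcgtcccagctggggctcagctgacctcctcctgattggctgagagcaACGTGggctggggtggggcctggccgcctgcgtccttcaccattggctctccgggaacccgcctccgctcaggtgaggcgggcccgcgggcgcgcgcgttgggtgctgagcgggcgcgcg
Pfkfb3: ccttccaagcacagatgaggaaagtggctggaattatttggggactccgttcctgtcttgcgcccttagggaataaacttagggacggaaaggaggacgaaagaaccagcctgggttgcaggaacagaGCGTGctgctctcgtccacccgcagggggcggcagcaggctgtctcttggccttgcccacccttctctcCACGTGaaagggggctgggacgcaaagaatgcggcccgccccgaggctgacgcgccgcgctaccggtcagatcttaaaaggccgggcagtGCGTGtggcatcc
Bnip3: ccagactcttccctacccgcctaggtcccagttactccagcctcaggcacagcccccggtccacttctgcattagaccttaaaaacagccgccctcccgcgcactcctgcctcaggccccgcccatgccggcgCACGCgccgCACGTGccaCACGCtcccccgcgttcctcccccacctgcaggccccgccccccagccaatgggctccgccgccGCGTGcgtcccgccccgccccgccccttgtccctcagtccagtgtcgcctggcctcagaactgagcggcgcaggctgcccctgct
Tpi1: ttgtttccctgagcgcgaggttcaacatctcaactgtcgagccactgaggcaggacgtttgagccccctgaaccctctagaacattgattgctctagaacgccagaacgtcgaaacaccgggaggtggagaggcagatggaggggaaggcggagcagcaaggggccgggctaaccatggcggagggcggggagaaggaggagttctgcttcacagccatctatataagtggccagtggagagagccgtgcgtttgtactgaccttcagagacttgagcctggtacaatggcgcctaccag
A match was held by 4 of the 4 genes with a window that were higher over all libraries, by 8 of the 9 whose response differed between libraries and by 20 of the 23 others.

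The values are regularized-log (rlog) levels on a log2 scale as deposited, with no read counts, so the depth of the libraries is unknown. The libraries fell into 2 sets in both groups, replicates 1 and 2 and replicates 3 and 4, which the labels do not give: Xist was at 12.69 to 12.79 rlog in replicates 3 and 4 and at 7.47 to 7.65 in replicates 1 and 2, and Ddx3y was at 5.9 to 6.45 and at 10.75 to 10.83. The 8 macrophage markers were all expressed, with a summed level (log2 of the summed linear values) of 18.96 to 19.51 in SLIT2 libraries and 19.03 to 19.54 in vehicle libraries. In bulk RNA, fewer cells of a type and less RNA per cell cannot be told apart, and this holds for each difference below. Differences are SLIT2 minus vehicle in log2 units, tested two-sided with limma across the 11851 genes whose mean rlog reached 4 or more, all 38 included, and called at an adjusted p under 0.05 (Benjamini-Hochberg over those 11851 genes). The replicate block is the same test with each SLIT2 library set against the vehicle library of its own number, called its partner. This pairing is an assumption, as the labels do not state it. The test on averaged duplicates used 1 value per group and set, with the set as a block, which leaves little to estimate the spread.

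Ndrg1, Ldha, Gapdh, Pdk1 and Higd1a rose with SLIT2, and none of the 38 fell. These 5 are 13.2% of the 38, against 6.76% of all genes tested that rose and 6.58% that fell (13.3% in either direction). 3 of the 23 glycolytic genes (Ldha, Gapdh and Pdk1) and 2 of the 15 hypoxia-response genes (Ndrg1 and Higd1a) are among them. Without adjustment, 8 of the 38 had a p under 0.05 with SLIT2 higher and 0 with SLIT2 lower, against 1578 and 1538 of the 11851 genes tested. The median difference was 0.144 over the 38, 0.102 over the glycolytic and 0.232 over the hypoxia-response genes, against 0.002 over all genes tested. With the replicate block 11 rose (28.9%, against 16.6% of all genes tested) and 4 fell (10.5%, against 16.4%, with 33.0% of all genes called in either direction). The 4 that fell were all glycolytic, 17.4% of the 23, and 0 of the 15 hypoxia-response genes fell.

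**Figure D1:**
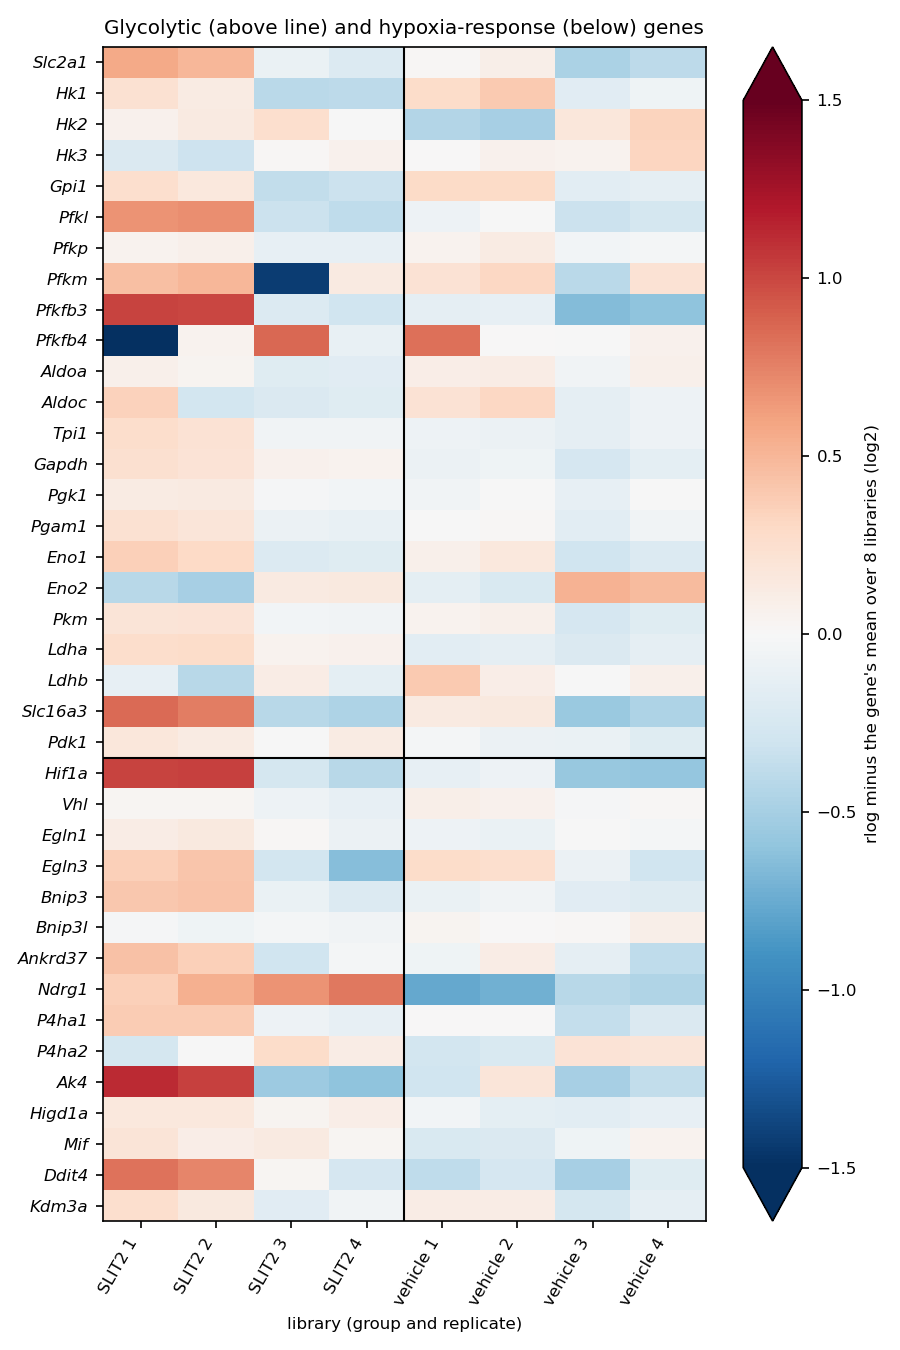
Each row is 1 of the 38 genes and each column 1 library, and the colour is the rlog value minus the gene's mean over 8 libraries (log2 units, the scale ending at its arrows). Ndrg1 is red in all 4 SLIT2 libraries and blue in all 4 vehicle libraries, while Hif1a, Pfkfb3, Pfkl, Slc16a3 and Ak4 are darkest red in SLIT2 replicates 1 and 2.

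Glucose enters through Slc2a1, the transporter GLUT1. Slc2a1 stood at 11.03, 10.96, 10.36 and 10.25 rlog in SLIT2 replicates 1 to 4, against 10.47, 10.54, 9.98 and 10.07 in vehicle replicates 1 to 4. Each SLIT2 library was above the vehicle library of its number, but the groups overlapped, because replicates 3 and 4 were low in both. The difference of 0.38 (SE 0.21) had a limma adjusted p of 0.303 without the block and of 0.00493 with the replicate block.

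The hexokinases make glucose-6-phosphate and trap glucose in the cell. Hk3, the isozyme typical of myeloid cells, was at 12.65, 12.56, 12.89 and 12.94 rlog in SLIT2 replicates 1 to 4, against 12.88, 12.94, 12.93 and 13.19 in vehicle replicates 1 to 4. Every SLIT2 library of Hk3 was below its vehicle partner, although the ranges overlapped, and the difference of -0.23 (SE 0.10) passed only with the replicate block (limma adjusted p 0.022, and 0.213 without it). Hk1, the widely expressed isozyme, was at 11.54, 11.43, 10.91 and 10.92 rlog in SLIT2 replicates 1 to 4, against 11.59, 11.70, 11.14 and 11.25 in vehicle replicates 1 to 4. Each SLIT2 library of Hk1 was below its partner, replicates 3 and 4 being low in both groups, and the difference of -0.22 (SE 0.18) passed only with the block (limma adjusted p 0.0167, and 0.522 without it). Hk2, the inducible isozyme and a HIF target, was at 10.72, 10.80, 10.91 and 10.66 rlog in SLIT2 replicates 1 to 4, against 10.22, 10.16, 10.83 and 10.99 in vehicle replicates 1 to 4. The low Hk2 values were those of vehicle replicates 1 and 2, and its pooled difference of 0.22 (SE 0.19) passed neither fit (limma adjusted p 0.528, and 0.312 with the block).

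Gpi1 encodes glucose-6-phosphate isomerase, the next enzyme. Its rlog values were 12.94, 12.85, 12.32 and 12.37 in SLIT2 replicates 1 to 4, against 12.98, 12.98, 12.53 and 12.56 in vehicle replicates 1 to 4. Each SLIT2 library was below its partner by little, and the difference of -0.14 (SE 0.18) passed only with the replicate block (limma adjusted p 0.0242, and 0.688 without it). An antisense gene model, Gm26762, shares 741 bases of exon with Gpi1, and no source used here states whether strand was used in the counting.

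Phosphofructokinase commits sugar to glycolysis, and its subunits come from Pfkl, Pfkp and Pfkm. Pfkl, the liver-type subunit, was at 10.73, 10.76, 9.74 and 9.68 rlog in SLIT2 replicates 1 to 4, against 9.99, 10.05, 9.74 and 9.80 in vehicle replicates 1 to 4. Only SLIT2 replicates 1 and 2 stood above all vehicle libraries, and the pooled difference of 0.33 (SE 0.27) did not pass (limma adjusted p 0.498). Pfkp, the platelet-type subunit, had a difference of -0.05 with a 95% interval of -0.20 to 0.10. Pfkm, the muscle-type subunit, was at 8.74, 8.79, 6.87 and 8.42 rlog in SLIT2 replicates 1 to 4, against 8.51, 8.60, 7.88 and 8.50 in vehicle replicates 1 to 4. Replicate 3 was the low library of Pfkm in both groups, so the difference of -0.17 had an interval of -1.12 to 0.78. Without SLIT2 replicate 3 the difference was 0.28, with the low vehicle replicate 3 still in the fit.

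The PFKFB enzymes set the level of fructose-2,6-bisphosphate, the activator of phosphofructokinase, and Pfkfb3 is the isozyme that favours its synthesis. Pfkfb3 was at 12.11, 12.10, 10.89 and 10.80 rlog in SLIT2 replicates 1 to 4, against 10.96, 10.98, 10.45 and 10.50 in vehicle replicates 1 to 4. All 4 SLIT2 libraries were above their partners, and SLIT2 replicates 1 and 2 were above every vehicle library, but SLIT2 replicates 3 and 4 lay below vehicle replicates 1 and 2. The difference of 0.75 (SE 0.34) had a limma adjusted p of 0.200 without the block and of 0.0135 with the replicate block. Pfkfb4, a related isozyme, was at 6.06, 7.80, 8.61 and 7.64 rlog in SLIT2 replicates 1 to 4, against 8.57, 7.76, 7.74 and 7.81 in vehicle replicates 1 to 4. Its SLIT2 libraries spread over more than the whole vehicle range, so the difference of -0.44 (SE 0.49) did not pass (limma adjusted p 0.647) and was 0.05 without SLIT2 replicate 1.

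Aldolase splits the sugar into a pair of triose phosphates, and Tpi1 interconverts them. Aldoa and Aldoc differed by -0.11 (95% interval -0.28 to 0.06) and -0.16 (-0.53 to 0.21). Tpi1 was at 13.44, 13.40, 13.13 and 13.13 rlog in SLIT2 replicates 1 to 4, against 13.10, 13.09, 13.04 and 13.10 in vehicle replicates 1 to 4. The Tpi1 groups did not overlap, though SLIT2 replicates 3 and 4 were just above the highest vehicle library. Its difference of 0.19 (SE 0.079) passed only with the replicate block (limma adjusted p 0.0483, and 0.168 without it).

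Gapdh encodes the dehydrogenase that makes 1,3-bisphosphoglycerate and NADH, on chromosome 6 from 125161715 to 125166467 (GRCm38, GENCODE M21). Its rlog values were 15.51, 15.47, 15.33 and 15.32 in SLIT2 replicates 1 to 4, against 15.18, 15.21, 15.02 and 15.12 in vehicle replicates 1 to 4. Every SLIT2 library was above every vehicle library. The means were 15.41 ± 0.097 and 15.13 ± 0.084 (SD, n = 4 each), a difference of 0.27 (SE 0.066, 95% interval 0.12 to 0.43, limma adjusted p 0.030). Gapdh is often used as a constant reference gene, and it rose here by 1.21-fold on the rlog scale. The call was lost without SLIT2 replicate 1 or 2 or vehicle replicate 1, 3 or 4 (adjusted p 0.0566 to 0.0843), after quantile normalization and on averaged duplicates (0.0811). Transcripts of 76 other genes match Gapdh at 95% identity or more over at least 300 bases, so reads could be shared with them, and the highest of the 68 that are in the table, Gm2606, had a mean rlog of 6.71.

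The lower enzymes Pgk1, Pgam1 and Eno1, for phosphoglycerate kinase, phosphoglycerate mutase and enolase, had differences of 0.10, 0.10 and 0.13 whose 95% intervals all held 0 (-0.03 to 0.23, -0.10 to 0.31 and -0.24 to 0.51). None of these 3 passed with the block either (limma adjusted p 0.102, 0.165 and 0.0677), though Eno1 passed with the set as a block (0.030). Eno2, the enolase known from neurons, was at 8.34, 8.26, 8.89 and 8.90 rlog in SLIT2 replicates 1 to 4, against 8.61, 8.52, 9.27 and 9.23 in vehicle replicates 1 to 4. Each SLIT2 library of Eno2 was lower than its partner while replicates 3 and 4 were high in both groups, and the difference of -0.31 (SE 0.23) passed only with the replicate block (limma adjusted p 0.0039, and 0.457 without it). Pkm, pyruvate kinase, was at 15.98, 15.99, 15.75 and 15.73 rlog in SLIT2 replicates 1 to 4, against 15.84, 15.86, 15.54 and 15.60 in vehicle replicates 1 to 4. The difference of 0.15 (SE 0.10) passed only with the block (limma adjusted p 0.016, and 0.400 without it), with each SLIT2 library above its partner and the ranges overlapping. Pkm shares 767 bases of exon with Gm49759 on the same strand.

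Ldha, the lactate dehydrogenase subunit that favours lactate, lies on chromosome 7 from 46841475 to 46855627. Its rlog values were 14.01, 14.02, 13.80 and 13.81 in SLIT2 replicates 1 to 4, against 13.59, 13.62, 13.53 and 13.62 in vehicle replicates 1 to 4. The groups did not overlap, and SLIT2 replicates 1 and 2 were the highest. Means of 13.91 ± 0.12 and 13.59 ± 0.042 (SD, n = 4 each) gave a difference of 0.32 (SE 0.064, 95% interval 0.17 to 0.47, limma adjusted p 0.0132), which was 1.25-fold. The call held without any 1 library (adjusted p 0.015 to 0.0409) but not on averaged duplicates (0.0915). Ldhb, the subunit that favours pyruvate, differed by -0.28 (95% interval -0.58 to 0.01, limma adjusted p 0.21).

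Slc16a3 encodes MCT4, the lactate exporter. Slc16a3 was at 10.56, 10.48, 9.29 and 9.24 rlog in SLIT2 replicates 1 to 4, against 9.84, 9.85, 9.15 and 9.25 in vehicle replicates 1 to 4. SLIT2 replicates 1 and 2 were the highest libraries, and replicates 3 and 4 hardly differed between groups. The pooled difference of 0.37 (SE 0.35) passed neither fit (limma adjusted p 0.581, and 0.0722 with the block), though it passed with the replicate set as a block (0.0269).

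Pdk1 encodes a kinase that inactivates pyruvate dehydrogenase and so keeps pyruvate out of the citrate cycle. It lies on chromosome 2 from 71873224 to 71903858. Its rlog values were 11.47, 11.43, 11.30 and 11.43 in SLIT2 replicates 1 to 4, against 11.27, 11.22, 11.20 and 11.12 in vehicle replicates 1 to 4. The groups were close but did not overlap. The difference was 0.20 (SE 0.052, 95% interval 0.09 to 0.32, limma adjusted p 0.0371), from means of 11.41 ± 0.074 and 11.20 ± 0.062 (SD, n = 4 each). Pdk1 lost its call without SLIT2 replicate 1, 2 or 4 or vehicle replicate 2, 3 or 4 (adjusted p 0.079 to 0.0969), on averaged duplicates, and with no filter or no variance trend.

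**Figure D2:**
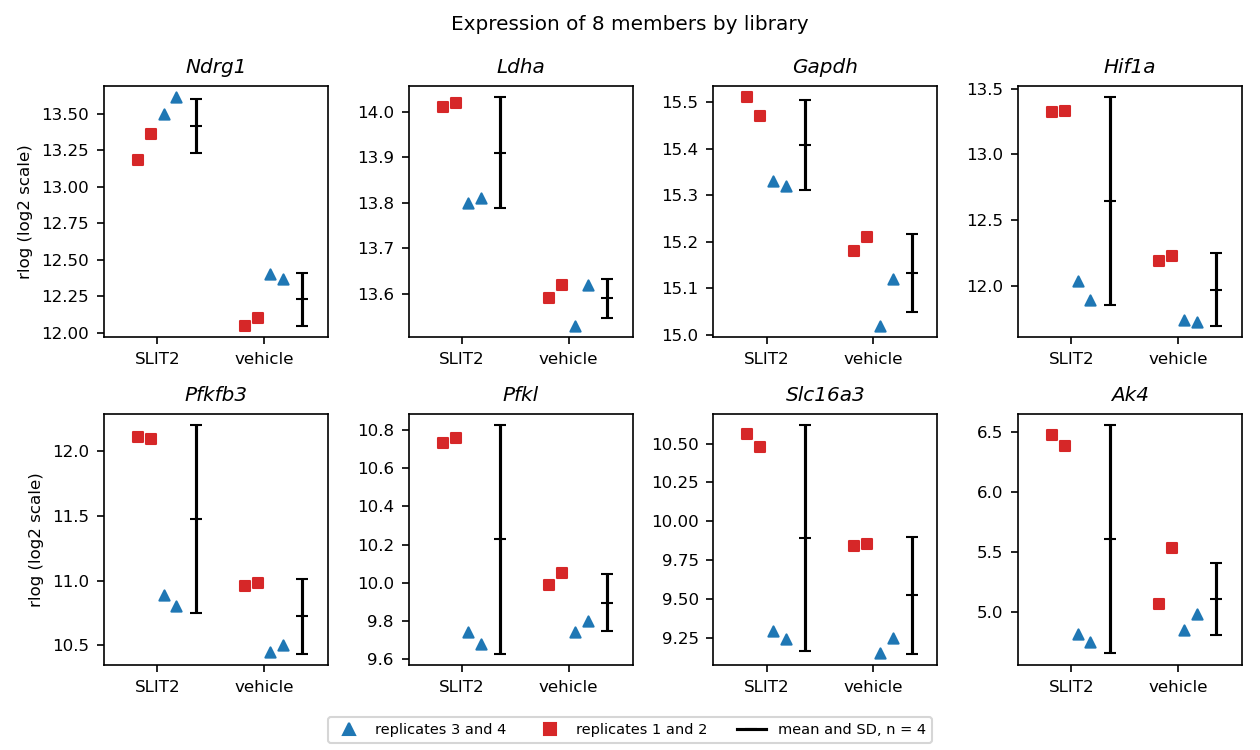
The rlog value (log2 scale, each panel with its own range) of 8 genes is plotted for every library, SLIT2 left of vehicle, with triangles for replicates 3 and 4, squares for replicates 1 and 2, and bars for the mean and SD of 4 libraries. Ndrg1, Ldha and Gapdh separate the groups in all libraries, whereas in Hif1a, Pfkfb3, Pfkl, Slc16a3 and Ak4 the SLIT2 squares stand far above all other points.

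Of the HIF axis, Hif1a lies on chromosome 12 from 73901375 to 73947530. It was at 13.32, 13.33, 12.04 and 11.89 rlog in SLIT2 replicates 1 to 4, against 12.19, 12.23, 11.74 and 11.73 in vehicle replicates 1 to 4. All SLIT2 libraries were above their partners, and SLIT2 replicates 1 and 2 were above all others by about 1 unit, while SLIT2 replicates 3 and 4 lay below vehicle replicates 1 and 2. The difference of 0.67 (SE 0.36) had a limma adjusted p of 0.286 without the block and of 0.0323 with the replicate block. Hif1a shares 330 bases of exon with the antisense gene Gm15283, which is listed at 0, and 148 bases with Gm49321 on its own strand.

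The other genes of the axis moved little. Vhl, whose protein recognises hydroxylated HIF-alpha, differed by -0.07 (95% interval -0.20 to 0.05), and Egln1, the main oxygen-sensing prolyl hydroxylase (PHD2), by 0.10 (-0.04 to 0.23). Egln3, a hydroxylase (PHD3) that is itself a HIF target, differed by -0.07 (-0.66 to 0.51) at low levels of 4.79 to 5.85 rlog over the SLIT2 libraries and 5.14 to 5.71 over the vehicle libraries. None of these 3 passed with the replicate block (limma adjusted p 0.192, 0.223 and 0.632).

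Ndrg1 had the widest difference of the 38. It encodes a stress-responsive protein of the NDRG family and is a long-known target of HIF-1, on chromosome 15 from 66929318 to 66969640. Its rlog values were 13.18, 13.36, 13.50 and 13.61 in SLIT2 replicates 1 to 4, against 12.05, 12.10, 12.40 and 12.37 in vehicle replicates 1 to 4. The lowest SLIT2 library was well above the highest vehicle library. The means were 13.41 ± 0.19 and 12.23 ± 0.18 (SD, n = 4 each), a difference of 1.18 (SE 0.11, 95% interval 0.92 to 1.45, limma adjusted p 0.000472), or 2.27-fold. It passed all 19 alternatives, including averaged duplicates (adjusted p 0.0262), where it was the only 1 of the 38 called, against 5.81% of all genes tested called there and 3.15% called higher. An antisense gene model, Gm17035 (mean rlog 2.38), shares 419 bases of exon with Ndrg1.

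Higd1a, a mitochondrial inner membrane protein induced by hypoxia, lies on chromosome 9 from 121848563 to 121858362. Higd1a was at 8.35, 8.36, 8.24 and 8.30 rlog in SLIT2 replicates 1 to 4, against 8.16, 8.05, 8.04 and 8.07 in vehicle replicates 1 to 4. Its groups did not overlap. The difference was 0.23 (SE 0.058, 95% interval 0.10 to 0.37, limma adjusted p 0.035), from means of 8.31 ± 0.055 and 8.08 ± 0.055 (SD, n = 4 each). The call was lost without SLIT2 replicate 1, 2 or 4 or vehicle replicate 2, 3 or 4 (adjusted p 0.0719 to 0.0975), on averaged duplicates, and with no filter. Higd1a shares 683 bases of exon with the antisense model Gm47112.

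P4ha1 and P4ha2 encode the catalytic subunits of collagen prolyl 4-hydroxylase. P4ha1 was at 11.84, 11.84, 11.38 and 11.34 rlog in SLIT2 replicates 1 to 4, against 11.47, 11.47, 11.10 and 11.24 in vehicle replicates 1 to 4. Each SLIT2 library was above its partner, with overlapping ranges, and the difference of 0.28 (SE 0.15) passed only with the replicate block (limma adjusted p 0.008, and 0.274 without it). P4ha2 differed by 0.06 (95% interval -0.29 to 0.41).

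Bnip3 and Bnip3l encode mitochondrial outer membrane receptors for mitophagy. Bnip3 was at 10.35, 10.37, 9.85 and 9.74 rlog in SLIT2 replicates 1 to 4, against 9.84, 9.89, 9.77 and 9.75 in vehicle replicates 1 to 4. As with Pfkl, SLIT2 replicates 1 and 2 stood alone, and the pooled difference of 0.26 (SE 0.15) passed neither fit (limma adjusted p 0.311, and 0.0856 with the block), though it passed with the set as a block (0.0369). Bnip3 shares 504 bases of exon with the antisense model Gm45507. Bnip3l was the 1 gene of the 38 whose SLIT2 values all lay below the vehicle values, by -0.08 (95% interval -0.16 to 0.00, limma adjusted p 0.196, and 0.0331 with the set as a block). Its SLIT2 libraries were within 12.29 to 12.33 rlog and its vehicle libraries within 12.36 to 12.44. Non-overlap with SLIT2 higher was seen for 6 of the 38 (15.8%, against 10.6% of all genes tested), and with SLIT2 lower for this 1 (2.63%, against 9.99%).

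Ddit4 (REDD1), a stress-induced inhibitor of mTORC1, was at 6.39, 6.31, 5.60 and 5.32 rlog in SLIT2 replicates 1 to 4, against 5.19, 5.33, 5.08 and 5.39 in vehicle replicates 1 to 4. SLIT2 replicate 4 was the only SLIT2 library within the vehicle range. Its difference of 0.66 (SE 0.24) passed neither fit (limma adjusted p 0.123, and 0.0521 with the block), though it passed with the set as a block (0.0167). Ak4, a mitochondrial adenylate kinase, was at 6.47, 6.38, 4.81 and 4.75 rlog in SLIT2 replicates 1 to 4, against 5.06, 5.53, 4.85 and 4.98 in vehicle replicates 1 to 4. Here SLIT2 replicates 1 and 2 were the highest of all libraries and SLIT2 replicates 3 and 4 the lowest, and the pooled difference of 0.50 (SE 0.43) did not pass (limma adjusted p 0.536).

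The last HIF targets are Mif, Ankrd37 and Kdm3a. Mif, a cytokine that macrophages secrete, was at 10.41, 10.32, 10.35 and 10.25 rlog in SLIT2 replicates 1 to 4, against 9.99, 10.00, 10.15 and 10.27 in vehicle replicates 1 to 4. Vehicle replicate 4 lay within the SLIT2 range, and the difference of 0.23 (SE 0.073) had limma adjusted p 0.0791, and 0.0529 with the block, and passed with the set as a block (0.0179). Ankrd37, an ankyrin-repeat protein, differed by 0.23 (95% interval -0.18 to 0.65), and Kdm3a, a histone H3 lysine demethylase, by 0.09 (-0.19 to 0.36).

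**Figure D3:**
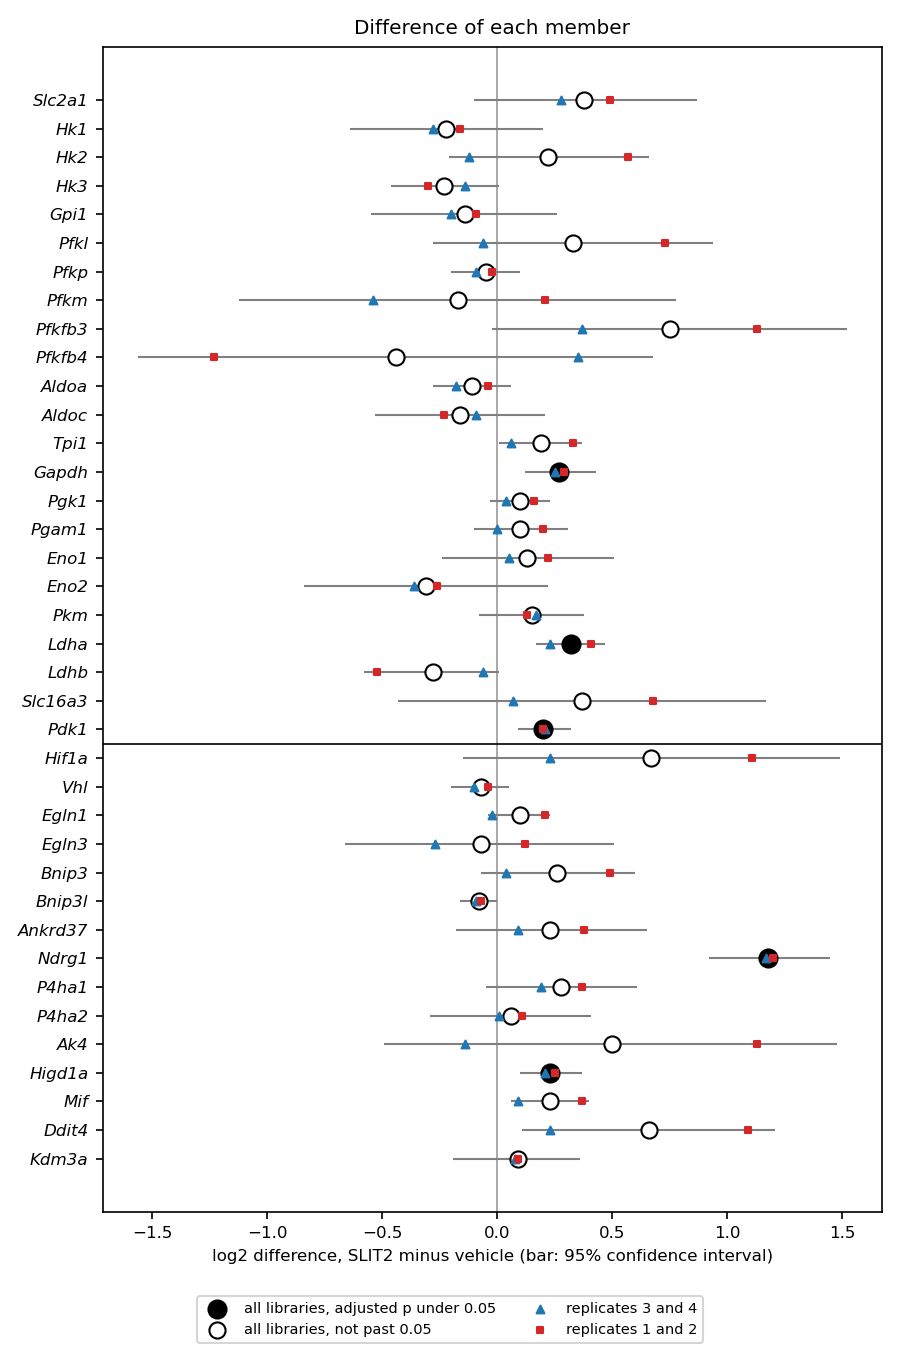
The log2 difference, SLIT2 minus vehicle, of each of the 38 genes is plotted with its 95% confidence interval (circle and bar, filled where the adjusted p is under 0.05), the difference within replicates 3 and 4 (triangle) and that within replicates 1 and 2 (square). The 5 filled circles are Gapdh, Ldha, Pdk1, Ndrg1 and Higd1a, and the triangles lie left of the squares in most other rows.

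The response to SLIT2 was smaller in replicates 3 and 4 than in replicates 1 and 2 for 9 of the 38 genes, and larger for 0. This was tested as the difference between the 2 effects in 1 fit across all genes, which rests on the spread within duplicates. The 9 are 23.7% of the 38, against 2.28% of all genes tested called in that direction and 2.12% in the other (4.40% in either). They are 5 glycolytic genes (Hk2, Pfkl, Pfkfb3, Tpi1 and Slc16a3) and 4 hypoxia-response genes (Hif1a, Bnip3, Ak4 and Ddit4). Called or not, the difference was negative for 15 of 15 hypoxia-response and 17 of 23 glycolytic genes, together 84.2% of the 38, against 49.5% of all genes tested. A negative sign is not always a smaller response. It also holds for genes that were lower with SLIT2 by more in replicates 3 and 4. Examples are Hk1 (-0.28, against -0.16 in replicates 1 and 2) and Eno2 (-0.36 against -0.26). For some genes, such as Ndrg1 (-0.02), the difference was slight. By set, the median effect over the 38 was 0.038 within replicates 3 and 4, while replicates 1 and 2 gave 0.213, against 0.005 and 0 over all genes tested.

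Hif1a had an effect of 0.23 in replicates 3 and 4, against 1.11 in replicates 1 and 2, a difference of -0.88 (SE 0.065, limma adjusted p 0.000991). That is 1.17-fold and 2.17-fold on the rlog scale. Pfkfb3, with effects of 0.37 and 1.13, differed by -0.76 (SE 0.055, limma adjusted p 0.000991). In Pfkl the effect was -0.06 in replicates 3 and 4, against 0.73 in replicates 1 and 2 (difference -0.78, SE 0.065, limma adjusted p 0.00161). For Slc16a3 the effects were 0.07 and 0.68 (difference -0.61, SE 0.075, limma adjusted p 0.00706). These 4 genes kept their call under all 13 alternatives, among them leaving out each library in turn.

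The other 5 depended on single libraries. Bnip3 had effects of 0.04 in replicates 3 and 4, against 0.49 in replicates 1 and 2 (difference -0.46, SE 0.069, limma adjusted p 0.0135), and was not called without SLIT2 replicate 1, SLIT2 replicate 2 or vehicle replicate 1 (0.0519 to 0.0595). Tpi1, at 0.06 and 0.33 (difference -0.26, SE 0.043, limma adjusted p 0.0161), was not called without SLIT2 replicate 1 or 4 or vehicle replicate 1 or 2 (0.0583 to 0.0672). Ak4 had the widest difference, with effects of -0.14 and 1.13 (difference -1.26, SE 0.21, limma adjusted p 0.0176), not called without SLIT2 replicate 1, 2 or 4 or vehicle replicate 4 (0.0622 to 0.0693). In Hk2, where vehicle replicates 1 and 2 were the low libraries, the effects were -0.12 and 0.57 (difference -0.69, SE 0.12, limma adjusted p 0.0188), not called without SLIT2 replicate 1 or 2 or vehicle replicate 1, 2 or 4 (0.0573 to 0.0766). Ddit4 was the nearest to the threshold, with effects of 0.23 and 1.09 (difference -0.86, SE 0.20, limma adjusted p 0.0487), and was called without vehicle replicate 3 (0.0338) but not without any other 1 library (0.0504 to 0.162). Without a variance trend Hk2, Tpi1, Ak4 and Ddit4 were not called, and Ddit4 was not called after quantile normalization.

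Ndrg1, Gapdh, Pdk1 and Higd1a had nearly the same effect in both sets, at 1.17, 0.25, 0.21 and 0.21 in replicates 3 and 4 and 1.20, 0.29, 0.20 and 0.25 in replicates 1 and 2. Their set differences were within -0.04 to 0.00 (limma adjusted p 0.757 to 1.0). In Ndrg1 the 95% interval of the set difference was -0.22 to 0.17, far less than its effect. Ldha lay between, at 0.23 and 0.41 (difference -0.18, SE 0.048, limma adjusted p 0.0821). Opposite signs in the 2 sets were seen for 7 of the 38 (18.4%), against 24.7% of all genes tested.

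Markers of other cell types also differed between the sets. The 6 erythroid and megakaryocytic markers had summed levels of 10.36 and 9.95 in SLIT2 replicates 3 and 4 and 12.04 and 12.31 in SLIT2 replicates 1 and 2, against 9.17 and 9.05 in vehicle replicates 3 and 4 and 10.52 and 10.53 in vehicle replicates 1 and 2. Of these 6, Hbb-bs was listed at 0, Hba-a1 was near -1.95 rlog, and Pf4 and Ppbp, which encode platelet chemokines, were tested. Ppbp had a set difference of -1.06 (limma adjusted p 0.041) and Pf4 of -0.58 (0.126). Kdr, 1 of 8 stromal and endothelial markers, had a set difference of -0.37 (limma adjusted p 0.0435), with the list's summed level at 10.49 to 10.83 in SLIT2 libraries and 10.31 to 10.58 in vehicle libraries. 3 macrophage markers, Fcgr1, Mertk and Itgam, had positive set differences of 0.46, 0.37 and 0.31 (limma adjusted p 0.0156, 0.0105 and 0.0136). Their part in the result was not tested.

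Single markers also differed between the groups over all libraries. Among macrophage markers Fcgr1 rose by 1.16 (limma adjusted p 0.0016) and Cd68 fell by 0.25 (0.0183), and among stromal markers Col3a1 rose by 0.66 (0.0422). Pf4 and Ppbp, with differences of 1.36 and 1.14, passed only with the replicate block (limma adjusted p 0.000715 and 0.0134, against 0.212 and 0.0908 without it). The summed level of the 8 neutrophil markers was 11.85 to 12.22 in SLIT2 libraries and 11.22 to 11.45 in vehicle libraries, carried by Csf3r, while Ly6g and Retnlg were listed at 0 and Mpo and Elane were at -2.14 rlog. It was 9.26 to 9.77 and 9.91 to 10.42 for the 6 dendritic cell markers, carried by Itgax, with Flt3 and Ccr7 below 0. It was 9.41 to 9.77 and 9.88 to 10.25 for the 6 lymphocyte markers, carried by Cd4, with Cd3e at -2.14. The 4 mast cell markers were at 4.57 to 5.01 and 5.04 to 5.56, all from Kit, with the other 3 listed at 0, and Kit passed only with the replicate block (limma adjusted p 0.0382, and 0.0869 without it). Their part in the results for the 38 genes was not tested.

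**Figure D4:**
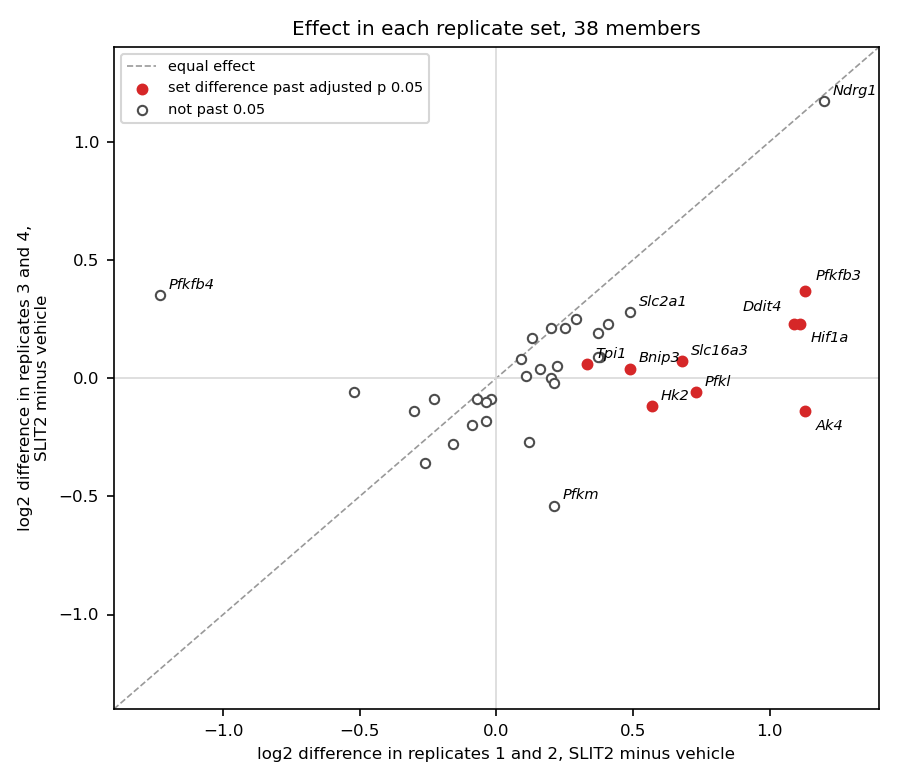
Each point is 1 of the 38 genes, with the log2 difference between SLIT2 and vehicle in replicates 3 and 4 on the vertical axis and that in replicates 1 and 2 on the horizontal axis, and the dashed line marks equal effects. The 9 filled points, where the 2 effects differed at an adjusted p under 0.05, all lie below the line, and Ndrg1 lies close to it at 1.17 and 1.20.

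By the median, more of the variation of these genes went with the set than with the treatment. Splitting each gene's sum of squares over the 8 libraries, the set took a median of 53.3% over the 38, the treatment 27.7% and their interaction 6.47%. Over all genes tested the medians were 41.4%, 20.5% and 3.09%. Gpi1 had 90.2% with the set and Eno1 87.2%, whereas Ndrg1 had 93.3% with the treatment, Higd1a 85.7%, Ldha 80.5%, Gapdh 75.5% and Pdk1 74.9%. Egln1 and Hk2 had the widest shares in the interaction, at 48.5% and 36.2%.

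Levels of isozymes of 1 step were compared per length, as the linear rlog value per kb of exon and its share of the sum over the step, with no test. Hexokinase was mostly Hk3, at 76.5 ± 4.2% of the step in SLIT2 libraries and 79.0 ± 0.8% in vehicle libraries (SD, n = 4 each). Hk2 made up 11.9 ± 1.2% and 9.21 ± 2.2%, and Hk1 11.6 ± 3.4% and 11.8 ± 2.7%. By library, Hk2 was at 11.9, 13.2, 12.4 and 10.3% in SLIT2 replicates 1 to 4, against 7.66, 7.06, 11.3 and 10.8% in vehicle replicates 1 to 4, so its share was low in vehicle replicates 1 and 2. With the longest transcript as the length, Hk1 averaged 18.6 ± 5.0% in SLIT2 and 18.9 ± 4.0% in vehicle libraries. Hk2 then averaged 10.5 ± 0.97% and 8.08 ± 2.0%, and Hk3 71.0 ± 5.5% and 73.0 ± 2.1%. Phosphofructokinase was shared between all 3 subunits, with Pfkm at 20.7 ± 6.8% in SLIT2 libraries and 23.6 ± 3.1% in vehicle libraries. Pfkl was at 45.0, 44.9, 39.3 and 31.7% in SLIT2 replicates 1 to 4, against a range of 32.2 to 34.6% over the 4 vehicle libraries. In SLIT2 replicate 3 the Pfkm share was only 10.7%, and the rlog value of Pfkl, 9.74, was that of vehicle replicate 3. Per kb of exon, Pfkl thus had the largest share in SLIT2 replicates 1 and 2, where Pfkp was at 32.4 and 32.3%. Pfkp led in all 4 vehicle libraries at 41.2, 41.1, 46.4 and 41.7%. This order depends on the length used. Pfkp has 13.4 kb of exon and a longest transcript of 8.68 kb. Its longest protein-coding transcript is only 4145 bases, against 3730 for Pfkl. Shares on protein-coding lengths were not computed, and the shorter Pfkp length would raise its share. On the length of the longest transcript, Pfkl averaged 46.0 ± 6.7% in SLIT2 and 39.3 ± 1.0% in vehicle libraries and Pfkp 38.6 ± 8.2% and 42.8 ± 2.2%. Pfkp also shares 748 bases of exon with the antisense gene Pitrm1, which is expressed at a mean rlog of 9.64.

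The remaining steps each had 1 main isozyme. Aldoa was at 99.1 ± 0.15% of aldolase in SLIT2 libraries and 99.1 ± 0.10% in vehicle libraries. Eno1 held 96.3 ± 1.5% and 95.1 ± 1.9% of enolase. Ldha made up 98.6 ± 0.30% of the lactate dehydrogenase level in SLIT2 and 97.9 ± 0.26% in vehicle libraries. Pfkfb3 made up 87.9 ± 9.5% of the PFKFB pair in SLIT2 and 81.1 ± 3.5% in vehicle libraries, with 97.7% in SLIT2 replicate 1, the library where Pfkfb4 was lowest.

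**Figure D5:**
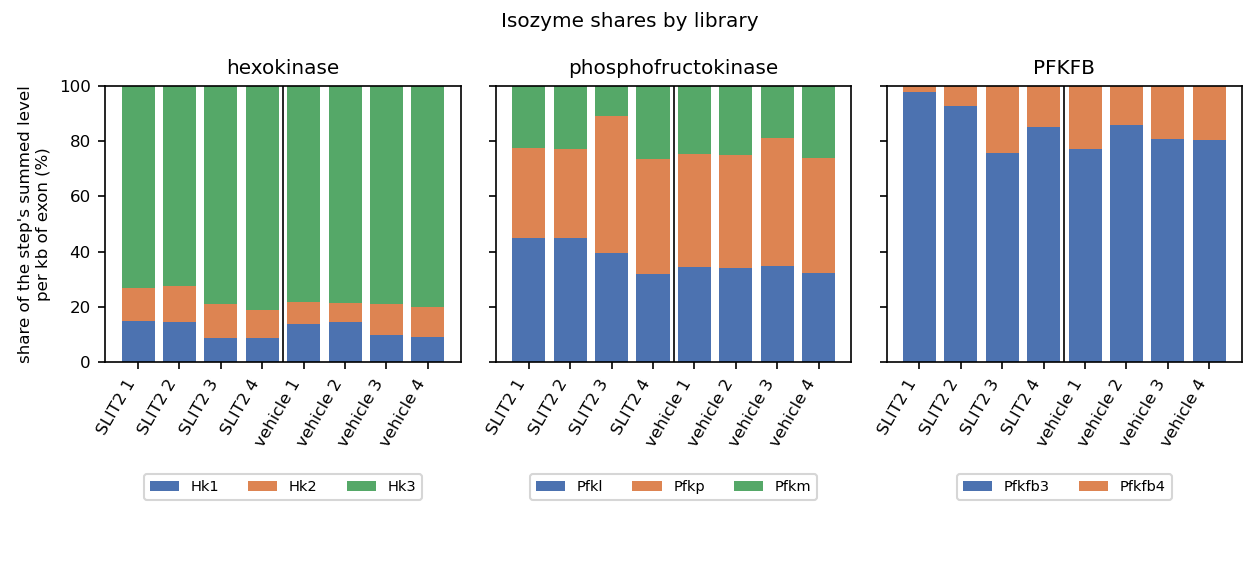
Stacked bars give each isozyme's share (%) of the summed level per kb of exon in hexokinase, phosphofructokinase and the PFKFB pair, 1 bar per library with SLIT2 left of vehicle. Hk3 takes the largest part of hexokinase in every library, and the Pfkl part is largest in SLIT2 replicates 1 and 2, at 45.0 and 44.9%.

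Genes next to these in metabolism were read from 7 further lists. Of 12 tested genes of other glycolytic steps, 1 rose and 0 fell: Slc16a1, the lactate transporter MCT1 (difference 0.25, SE 0.056, limma adjusted p 0.0224), and with the replicate block 5 rose. Of 8 pentose phosphate genes, 0 rose and 2 fell, with differences of -0.34 for Taldo1, transaldolase (limma adjusted p 0.00918), and -0.36 for Pgd, a dehydrogenase of the oxidative branch (0.0431), and the replicate block gave 5 that fell. The pathway leaves glycolysis at glucose-6-phosphate, the product of the hexokinases. Of 12 genes of pyruvate entry into mitochondria, Pdp2 rose by 0.28 (limma adjusted p 0.0124) and Pdp1 fell by 0.26 (0.0458). Both encode phosphatases that reverse the action of Pdk1, and with the block 2 rose and 2 fell.

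Of 15 tested citrate cycle genes, 2 rose, 0 fell, and the replicate block gave 4 that rose. Fh1, fumarase, rose by 1.25 (SE 0.17, limma adjusted p 0.00205), a wider difference than that of any of the 38, and its effect was 0.91 in replicates 3 and 4, against 1.58 in replicates 1 and 2 (difference -0.67, limma adjusted p 0.0127). Idh3b, a subunit of isocitrate dehydrogenase, rose by 0.28 (limma adjusted p 0.00184). Of 8 genes of glycogen and gluconeogenesis, 0 passed by limma (without adjustment, 0 higher and 1 lower had a p under 0.05), and 3 fell with the block. The smallest p was that of Gbe1, the glycogen branching enzyme, at -0.40 (limma adjusted p 0.0897, and 0.0108 with the block). Gbe1 stands in the list of other HIF-response genes too and counts in both.

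Of 12 tested genes that control HIF, 1 rose and 1 fell, while the replicate block gave 6 up and 2 down. Siah2, a ubiquitin ligase for prolyl hydroxylases, rose by 0.41 (limma adjusted p 0.00316). Cited2, which competes with HIF-1 for the coactivators p300 and CBP and is itself a HIF target, fell by 0.52 (limma adjusted p 0.00129). Of 20 tested other HIF-response genes, 0 rose and 3 fell, while the replicate block gave 2 up and 6 down. Plin2, a lipid droplet coat protein, fell by 0.78 (limma adjusted p 0.000986), Rora, a nuclear receptor, by 0.31 (0.00673), and Bhlhe41, a transcriptional repressor, by 0.39 (0.0224). On averaged duplicates this list had 1 up and 1 down. The share of all genes tested was 6.76% up and 6.58% down without the block, and the 11 HIF targets within the 38 had 2 up and 0 down. The difference between the lists was not tested.

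On averaged duplicates few calls of the further lists were left. There 1 of the other glycolytic genes rose, 1 pentose phosphate gene and 1 gene of HIF control fell, and 0 passed by limma among pyruvate entry, citrate cycle and glycogen genes.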

How the data were processed

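Bulk RNA-seq was made from 4 SLIT2 and 4 vehicle libraries of mouse bone marrow-derived macrophages, each from 300 ng of RNA with a stranded kit and read as paired ends of 101 bp, per the labels' protocols. Per the submitters' processing notes, the authors worked on mm10 and GRCm38 with STAR, Salmon, DESeq2, Picard 2.23.8, SAMtools 1.7 and FastQC 0.11.9. No source used here states their settings, strand included. The deposited values are rlog values on a log2 scale for 41444 genes, given by the authors to 2 decimals. The transform corrects for library size and shrinks low genes most, so their differences are understated. The table holds no counts, so depth and counting error are unknown. It has 0 unused sample columns.

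The 11851 genes whose mean rlog reached 4 or more were tested in R 4.3.3 with limma 3.58.1 (mean-variance trend, treatment only, two-sided, Benjamini-Hochberg, threshold 0.05) and, for the difference between replicate sets, with a treatment by set interaction. Code was tested on simulated data. The labels number replicates 1 to 4 in both groups and do not say whether equal numbers are pairs. Deviations from the group means correlated between same-numbered libraries at 0.637, 0.671, 0.753 and 0.587. These values cannot show pairing by number, because the split into sets alone can give such correlations. Libraries of the same set but different number were not compared. The numbers were taken as pairs by assumption, and the blocked result stands beside each result whose call it changes. Alternatives were the block by number or set, averaged duplicates, filters, variance priors, scalings, sample weights, and leaving out each library. The fit on averaged duplicates also carried the set as a block, with 1 value per group and set. A call lost there does not show that an effect is absent.

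Coordinates, lengths and overlaps came from GENCODE M21 on GRCm38 (41157 identifiers matched), near-identical transcripts from blastn 2.17.0, and figures from matplotlib 3.10.9. Values per library were given for genes past the threshold with or without the block or with a difference of at least 0.5; Hk2, Pfkl, Pfkm, Pfkfb4, Slc16a3, Bnip3 and Mif were added after their values were seen. From each further list up to 3 called genes with the smallest p were named, or the 1 with the smallest p. The 38 genes, the lists, the sets and the tests were chosen with earlier results of these data known. The single values of 2 marker genes are not reported here; the summed levels kept them.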

Additional observations from a re-analysis of the deposited data

Results flagged for a closer look

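Among the 76 groups of 4 values (38 genes, SLIT2 and vehicle), 4 held a library far from the other 3 of its group, where chance gives about 1 in 20. They were Pfkm in vehicle replicate 3 (7.88 rlog, below the others), Pfkfb4 in vehicle replicate 1 (8.57, above), Aldoc in SLIT2 replicate 1 (8.78, above) and Tpi1 in vehicle replicate 3 (13.04, below).

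The effect of SLIT2 differed between replicates 3 and 4 and replicates 1 and 2 for 9 of the 38 genes by limma's interaction test. The differences were -0.69 for Hk2 (adjusted p 0.0188), -0.78 for Pfkl (0.00161), -0.76 for Pfkfb3 (0.000991), -0.26 for Tpi1 (0.0161), -0.61 for Slc16a3 (0.00706), -0.88 for Hif1a (0.000991), -0.46 for Bnip3 (0.0135), -1.26 for Ak4 (0.0176) and -0.86 for Ddit4 (0.0487). The labels do not say what the sets are, and the test rests on 2 libraries of each group in each set.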

How the results depend on the processing

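Of 1581 genes past the threshold, the replicate block gave 3912, the set as a block 4652, averaged duplicates 688, and leaving out 1 library 1021 to 1254. Among glycolytic genes, 3 became 11 with the replicate block, 13 with the set block, 0 on averaged duplicates and 1 to 3 without 1 library. Among hypoxia-response genes, 2 became 4, 8, 1 and 1 to 2, and 1 with no filter on low values. For the further lists the replicate block gave 5 (other glycolysis), 5 (pentose phosphate), 4 (pyruvate entry), 4 (citrate cycle), 3 (glycogen and gluconeogenesis), 8 (HIF control) and 8 (other HIF-response). Averaged duplicates gave 1, 1, 0, 0, 0, 1 and 2 in the same order. The set difference, called for 521 genes, was called for 116 without a variance trend and 122 to 579 without 1 library. It was called for 5 glycolytic genes, 3 without the trend and 3 to 8 without 1 library, and for 4 hypoxia-response genes, 2 without the trend, 2 with a mean rlog of at least 6, which leaves out Ak4 and Ddit4, and 1 to 5 without 1 library.

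Reversals were seen only for uncalled genes, without 1 library. Pfkm ranged from -0.36 to 0.28 (0.28 without SLIT2 replicate 3) and Pfkfb4 from -0.80 to 0.05 (0.05 without SLIT2 replicate 1). Egln3 ranged from -0.22 to 0.13, at 0.01 without SLIT2 replicate 3, 0.13 without SLIT2 replicate 4, 0.01 without vehicle replicate 1 and 0.00 without vehicle replicate 2. P4ha2 ranged from -0.02 to 0.16, at -0.02 without SLIT2 replicate 3, -0.02 without vehicle replicate 1 and -0.01 without vehicle replicate 2. The causes were not tested. Of the single-gene SLIT2 minus vehicle values under an alternative, 656 kept direction and call, 25 lost the call, 28 gained it and 9 reversed. The libraries have no counts, so what depth limits cannot be given, and a pseudocount does not apply to rlog values.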
